A study of Mus musculus with 39 samples.

Results

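Fkbp5, 7 further genes known to be induced by glucocorticoids and the gene of their receptor were followed through bulk RNA of mouse tumours. The 9 genes, of 39179 in the count table, were Fkbp5, Tsc22d3, Klf9, Zbtb16, Sgk1, Ddit4, Errfi1, Pdk4 and Nr3c1, and all 9 were among the 15070 genes that passed the filter on low counts. Fkbp5 was chosen by measured values of these tumours. Which values chose it is not stated, and its low counts on day 5 under regimens with EPAT were taken to be those. Its day 5 differences are therefore given as a description and support nothing. The other genes were listed as targets of the same receptor, with results of these data known, and the rule set no threshold.

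The 39 libraries came from Braf-mutated melanoma tumours grown in C57BL/6 mice, which began treatment on day 7 after the tumour cells were injected. Vehicle animals received DMSO-PEG400 in water. EPAT, a treatment that antagonises EP2 and EP4 (both receptors for prostaglandin E2), was dosed at 30 mpk in 200 µl of a 3 mg/mL preparation. Anti-PD-1, an antibody against an inhibitory T cell receptor, was dosed at 200 µg, the combination paired both agents, and each regimen was sampled after 2 and after 5 days. There were 5 libraries in each of the 8 groups except anti-PD-1 on day 2, which had 4. In 3 libraries the number in the sample title is that of another group's libraries: anti-PD-1 replicate 3 of day 5 carries the anti-PD-1 day 2 number, EPAT replicate 5 of day 5 the EPAT day 2 number, and EPAT replicate 5 of day 2 the EPAT day 5 number. What the title numbers mean is not stated, each library was kept under its labelled day, and results that rest on these 3 are also given without them. The labels name neither the cell line, nor the age or sex of the animals, nor whether each library of a group came from its own animal, so a p-value here measures the spread between these samples.

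Glucocorticoids are steroid hormones that enter cells and bind the glucocorticoid receptor, encoded by Nr3c1, which is held in a Hsp90 complex until hormone binds, then moves to the nucleus and activates genes through palindromic response elements. Fkbp5 encodes a co-chaperone of that Hsp90 complex which lowers the receptor's affinity for hormone, and its own induction closes a feedback loop. In tumours glucocorticoid signalling is known for dampening inflammation and T cell responses. The prostaglandin receptors blocked by EPAT raise cyclic AMP, whose transcription factor CREB binds the cyclic AMP response element.

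Promoter sequences were taken from RefSeq (build GRCm38.p6), which held 15 start sites for 7 of the genes. Each window of 300 bases, 250 before and 50 after a start, was searched on both strands for the core of the glucocorticoid response element, written as GNACA, any 3 bases, then TGTNC, and for the cyclic AMP response element TGACGTCA. The glucocorticoid core was in 1 of the 15 windows, at a start of Sgk1, and in 156 of all 32851 mouse windows (0.475%). The cyclic AMP element was in 1, at a start of Errfi1, and in 588 of all windows (1.79%). The motifs shared no bases. A match describes letters only, and the window does not cover more distant elements. The 250 bases before the start are shown, 5′ to 3′ on the gene's strand, for Fkbp5 and Klf9, whose day 5 values set the combination apart, and for the Sgk1 and Errfi1 starts that held a motif, printed in capitals. They lie at chr17:28486150-28486399 on the minus strand, chr19:23140976-23141225, chr10:21993640-21993889 and chr4:150854820-150855069 on the plus strand. The Fkbp5, Sgk1 and Errfi1 stretches lie inside the annotated spans of their genes given below, and the Klf9 stretch ends where its gene begins. For Fkbp5 the 5′ end of the annotated span was not searched. The Sgk1 motif begins 188 bases before the start and the Errfi1 motif 51 bases before it.
Fkbp5: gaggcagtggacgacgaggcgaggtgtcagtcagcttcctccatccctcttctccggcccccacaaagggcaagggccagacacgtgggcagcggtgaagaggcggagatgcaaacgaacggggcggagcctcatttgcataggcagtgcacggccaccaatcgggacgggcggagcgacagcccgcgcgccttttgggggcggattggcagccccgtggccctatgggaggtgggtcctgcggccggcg
Klf9: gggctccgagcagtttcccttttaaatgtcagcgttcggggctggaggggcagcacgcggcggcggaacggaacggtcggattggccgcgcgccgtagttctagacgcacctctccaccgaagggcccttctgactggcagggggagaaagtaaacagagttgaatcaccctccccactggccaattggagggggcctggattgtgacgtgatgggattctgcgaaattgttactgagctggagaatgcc
Sgk1: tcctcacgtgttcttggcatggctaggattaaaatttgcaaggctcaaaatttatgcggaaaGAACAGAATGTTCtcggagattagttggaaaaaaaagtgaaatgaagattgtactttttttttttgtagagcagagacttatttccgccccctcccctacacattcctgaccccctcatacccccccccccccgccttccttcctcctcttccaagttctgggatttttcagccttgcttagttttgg
Errfi1: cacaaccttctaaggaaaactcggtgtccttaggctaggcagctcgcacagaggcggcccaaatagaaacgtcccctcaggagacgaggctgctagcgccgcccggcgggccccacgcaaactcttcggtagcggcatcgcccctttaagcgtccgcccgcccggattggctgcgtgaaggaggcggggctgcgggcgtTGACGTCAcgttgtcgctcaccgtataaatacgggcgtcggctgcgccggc

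The libraries held 8385741 to 15558113 counts each (median 12193825). The libraries are of 3′ tags, in which a count carries no term for transcript length, so levels were compared within a gene and not between genes. Levels are given in CPM, for which library sizes were scaled by TMM, and a fold change is the difference of fitted group means on the log2 scale with its standard error (SE). A gene was called when its adjusted p was under 0.05 over all 15070 genes. Of the melanocyte markers Pmel, Mlana, Tyr, Tyrp1, Dct, Gpr143, Slc45a2 and Oca2 no library held more than 11 counts, so the lineage was not marked by its pigment genes. The other listed markers, Mitf, Sox10, Mlph and S100b, passed the filter. Their summed level ran from 31.1 CPM (a library of EPAT on day 2) to 83.8 CPM (a library of the combination on day 5). Lung transcripts above 1 CPM occurred in between 2 and 4 libraries of each group.

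Fkbp5 lies at chr17:28399094-28517527 (GRCm38, minus strand). On day 5 its level in the combination was 15.2, 28.5, 27.5, 26.2 and 28 CPM over replicates 1 to 5. Vehicle tumours of that day had 70.3, 53.4, 38, 55.7 and 67.4 CPM. Each combination library lay below each vehicle library, and replicate 1 of the combination stood well under the other 4. Tumours given EPAT alone had 41.2, 48.6, 31.4, 31.5 and 55.5 CPM, and those given anti-PD-1 alone had 51.6, 44.5, 52.3, 61.9 and 61.4 CPM. The EPAT values overlapped those of vehicle and of anti-PD-1 and none reached down to the combination.

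The day 5 means were 57.0 ± 12.9 CPM (SD, n = 5) for vehicle, 54.3 ± 7.34 for anti-PD-1, 41.6 ± 10.6 for EPAT and 25.1 ± 5.61 for the combination. Fkbp5 was thus 2.27-fold lower in the combination than in vehicle (log2 fold change -1.18 ± 0.21), 2.16-fold lower than under anti-PD-1 (-1.11 ± 0.21) and 1.66-fold lower than under EPAT (-0.73 ± 0.21). EPAT alone was at -0.46 ± 0.20 against vehicle and anti-PD-1 alone at -0.07 ± 0.20. Fkbp5 was the 1 member among the genes called in 3 day 5 comparisons, which share control samples and were taken to have chosen it. These were the combination against vehicle (4 genes, 0.0265% of those tested), the combination against anti-PD-1 (3 genes, 0.0199%) and the averaged EPAT effect, which is the mean of EPAT against vehicle and the combination against anti-PD-1 (2 genes, 0.0133%, Fkbp5 at -0.78 ± 0.15). Every combination library of day 5 lay below all 34 other libraries for Fkbp5 and for no other tested gene (0.00664%), which restates the values that chose it. Within libraries with lung transcripts the combination was at -1.23 against vehicle (adjusted p = 0.236) and within those without at -0.95 (adjusted p = 0.707), so neither kept the call. EPAT alone was at 0.07 against vehicle in the latter. Leaving out the 3 libraries of mismatched title number, EPAT alone had a mean of 38.2 ± 8.34 CPM (SD, n = 4) and was at -0.58 against vehicle, the combination was at -1.17, -1.11 and -0.59 against vehicle, anti-PD-1 and EPAT, and Fkbp5 was no longer called against anti-PD-1. Leaving out single libraries moved the genes called in the combination against vehicle between 0 (for example without combination replicate 1) and 205 (without vehicle replicate 3 of day 5).

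**Figure D1:**
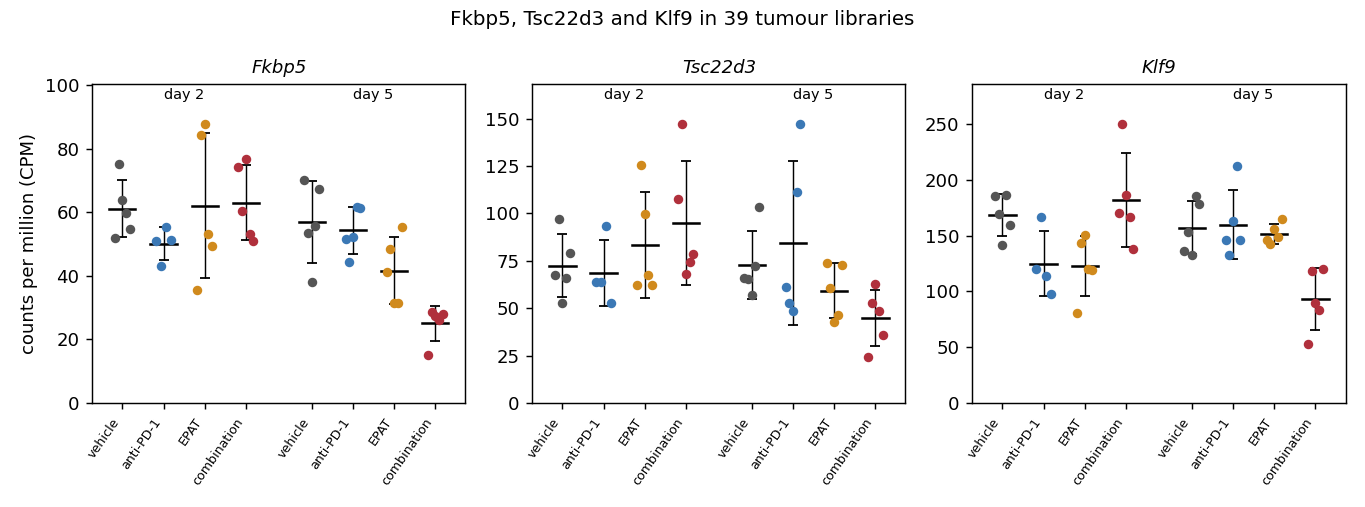
Level of Fkbp5, Tsc22d3 and Klf9 in CPM (linear axes from 0) for each library, by treatment and day; points are libraries, horizontal bars group means and error bars SD (n = 5, 4 for anti-PD-1 on day 2). For Fkbp5 the 5 combination libraries of day 5 sit between 15.2 and 28.5 CPM, under every other library, while on day 2 the 4 treatments overlap.

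On day 2, whose comparisons were taken to have played no part in the choice, Fkbp5 showed no such order. Vehicle tumours had 52.1, 75.2, 64.1, 59.8 and 54.9 CPM, and anti-PD-1 tumours 51.0, 43.1, 55.3 and 51.3 CPM (replicates 1, 2, 4 and 5). EPAT tumours had 35.7, 84.3, 87.8, 53.3 and 49.4 CPM and combination tumours 74.2, 60.3, 76.8, 53.3 and 50.9 CPM. EPAT held the lowest and the highest library of the day, and the groups overlapped. Against vehicle Fkbp5 differed by 0.02 ± 0.20 under EPAT (adjusted p = 0.998) and by 0.05 ± 0.20 under the combination (adjusted p = 0.967). The averaged EPAT effect was 0.18 ± 0.15 on day 2, and its value on day 5 minus that on day 2 was -0.96 ± 0.21, a difference that holds the day 5 values used in the choice. Ordered by mean, Fkbp5 ran from the combination on day 2 (63.1 ± 11.9 CPM) through EPAT (62.1 ± 22.8) and vehicle on day 2 (61.2 ± 9.06), vehicle (57.0) and anti-PD-1 on day 5 (54.3) and anti-PD-1 on day 2 (50.2 ± 5.11) to EPAT (41.6) and the combination on day 5 (25.1). The last pair differed by more than the SD of each group, and no other neighbours did.

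No gene was called (0% of those tested) in any of the 8 comparisons of day 2, which were each regimen against vehicle, the combination against each single agent, the averaged EPAT and anti-PD-1 effects and their interaction. At an unadjusted p under 0.05 these held between 521 and 1541 genes, of which between 0 and 3 were members. On day 5 no gene was called either (0%) for anti-PD-1 or EPAT against vehicle, the combination against EPAT, the averaged anti-PD-1 effect or the interaction, with 256 to 2842 genes at an unadjusted p under 0.05 and between 0 and 2 members among them. DESeq2 on the same counts called no member in these comparisons. Averaged over the 4 treatments, 332 genes (2.2%) differed between day 5 and day 2, and Fkbp5 at -0.47 ± 0.10 was the 1 member among them. Over fits that left out 1 library these genes numbered from 137 (without vehicle replicate 3 of day 5) to 574 (without anti-PD-1 replicate 1 of day 5), and 247 without the 3 libraries of mismatched title number, with Fkbp5 among them each time. The Fkbp5 difference between the days holds the day 5 values used in its choice, so its call in each fit supports nothing. Between the same days the fibroblast markers Col1a1, Col1a2, Lum and Pdgfra and the endothelial markers Cdh5 and Vwf rose and the adipocyte marker Lep fell. How the other markers of these lists moved between the days is not given here. The part of any of them in the Fkbp5 value was not tested. In vehicle tumours alone Fkbp5 was at -0.10 ± 0.20 between the days (no gene called, 0%).

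Klf9, a zinc finger transcription factor and direct target of the receptor (chr19:23141226-23168134, plus strand), had 52.7, 119, 89.4, 83.7 and 119.6 CPM in the combination on day 5. Vehicle tumours of that day had 136, 153, 132, 185 and 178 CPM, anti-PD-1 tumours 146, 132, 163, 212 and 146 CPM, and EPAT tumours 146, 143, 156, 149 and 165 CPM. All 5 combination libraries lay below the other 15 libraries of day 5, and replicate 1 was again the lowest. The share of all genes with that joint order was not counted. The combination was at -0.76 ± 0.18 against vehicle (adjusted p = 0.135), at -0.78 ± 0.18 against anti-PD-1 (adjusted p = 0.169) and at -0.71 ± 0.18 against EPAT (adjusted p = 0.239), so none passed the test. With DESeq2 on the same counts the first 2 passed, at -0.75 (adjusted p = 0.0238) and -0.79 (adjusted p = 0.0304). In both comparisons DESeq2 called more genes in all than the main fit did. Without vehicle replicate 3 of day 5 the difference from vehicle was -0.81 and passed (adjusted p = 0.0400), in a fit that called 205 genes in place of 4. EPAT alone was at -0.05 ± 0.18 against vehicle on day 5 (adjusted p = 1.00).

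Fkbp5 and Klf9 were the members for which every combination library of day 5 lay below every vehicle library (138 genes, 0.916%), every anti-PD-1 library (53 genes, 0.352%) and every EPAT library (186 genes, 1.23%). These 3 counts share the combination libraries, and for Fkbp5 they repeat its choice. Tested for any difference between the 8 groups, Klf9 passed (adjusted p = 0.0407), as did 85 genes in all (0.564%) with Fkbp5 among them. For Fkbp5 this test holds the day 5 values used in its choice. DESeq2, whose total of genes called in this test is not given here, called Ddit4 as well. Klf9 did not pass this test in 25 of the 39 fits that left out 1 library, which called from 24 (without vehicle replicate 1 of day 2) to 213 genes (without vehicle replicate 3 of day 5). Klf9 also did not pass it without the 3 libraries of mismatched title number (81 genes). On day 2 Klf9 had 186, 169, 141, 186 and 159.9 CPM in vehicle, 120.4, 166, 114 and 98.0 CPM under anti-PD-1, 81.0, 143, 150.4, 119.7 and 119 CPM under EPAT, and 169.8, 250.3, 187, 166 and 138 CPM in the combination. Both single agents sat low on that day and the combination level with vehicle. The single agents were at -0.43 ± 0.19 (anti-PD-1, adjusted p = 0.657) and -0.46 ± 0.18 (EPAT, adjusted p = 0.744) against vehicle, and the interaction of the 2 agents was 1.00 ± 0.27 (adjusted p = 0.475). On day 5 the interaction was -0.73 ± 0.26 (adjusted p = 1.00).

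Tsc22d3, which encodes the leucine zipper protein GILZ that carries part of the hormone's anti-inflammatory action (chrX:140539528-140600659, minus strand), had 24.5, 52.8, 62.7, 48.3 and 35.9 CPM in the combination on day 5. The other groups of that day had 66.0, 65.2, 56.9, 72.4 and 103 CPM (vehicle), 61.4, 52.9, 48.6, 111 and 147 CPM (anti-PD-1), and 74.0, 60.5, 42.8, 46.6 and 72.6 CPM (EPAT). Its combination libraries were among the low ones but overlapped each other group. The combination was at -0.70 ± 0.28 against vehicle (adjusted p = 0.236), at -0.91 ± 0.28 against anti-PD-1 (adjusted p = 0.598) and at -0.40 ± 0.28 against EPAT (adjusted p = 0.538). The averaged EPAT effect on Tsc22d3 was 0.34 ± 0.21 on day 2 (adjusted p = 0.998) and -0.60 ± 0.20 on day 5 (adjusted p = 0.899), a difference of -0.94 ± 0.29 (adjusted p = 1.00). On day 2 the level ranged from 52.6 to 96.9 CPM in vehicle, 52.6 to 93.4 under anti-PD-1, 62.0 to 125 under EPAT and 67.9 to 147 in the combination. No comparison of Tsc22d3 passed the test.

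**Figure D2:**
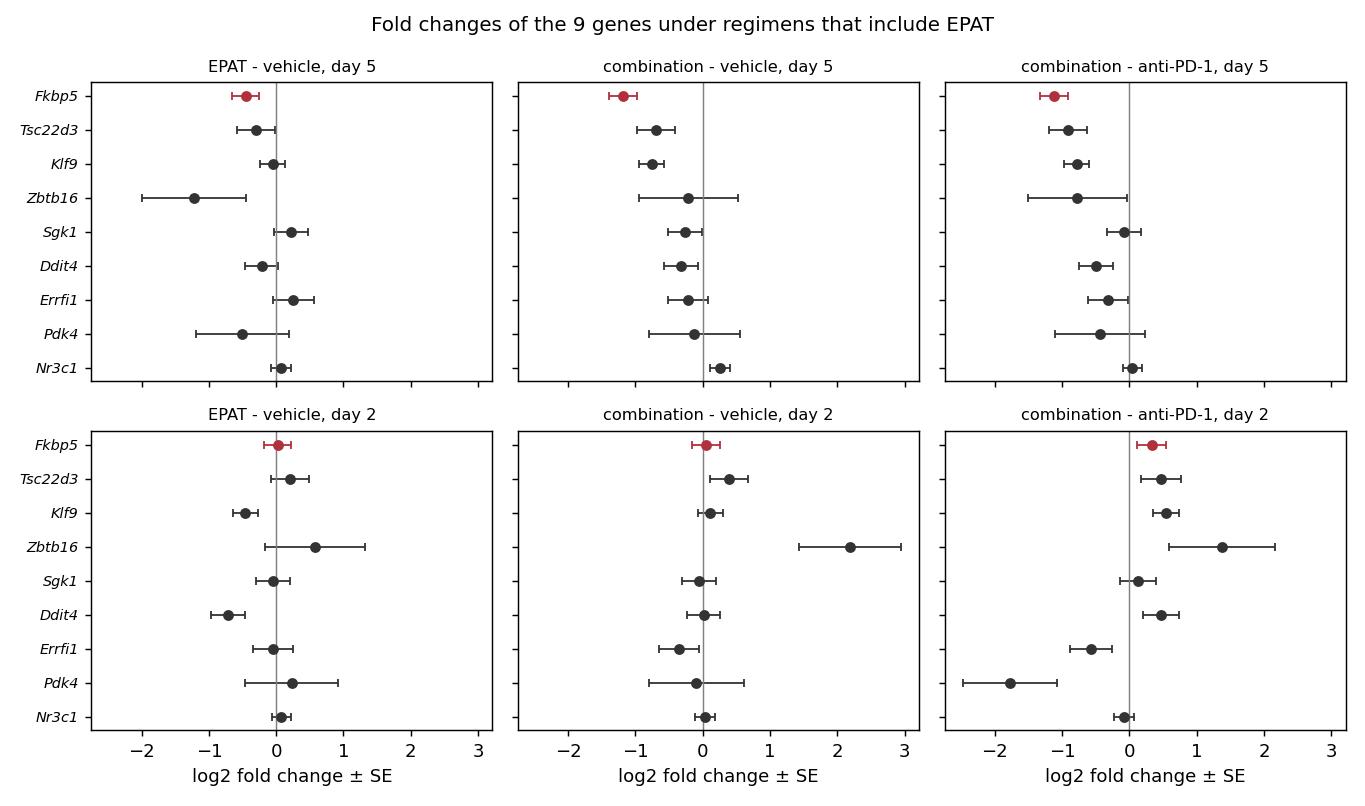
Log2 fold change (horizontal axis, 0 marked by a line) with SE for the 9 genes in 6 comparisons. Day 5 is above and day 2 below, with each comparison named as the first group minus the second. Fkbp5, taken to be chosen by its day 5 values, is in red. On day 5 Fkbp5, Tsc22d3 and Klf9 are negative in both comparisons of the combination shown, at -0.70 to -1.18. On day 2 the same 3 genes lie between 0.05 and 0.55 in those comparisons of the combination. For EPAT against vehicle on day 2 they are at 0.02, 0.21 and -0.46 in the same order.

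Over all 9 members, 8 were lower and 1 higher in the combination than in vehicle on day 5, with a median of -0.26 against -0.01 for all genes. The one higher was Nr3c1. For the combination against anti-PD-1 the counts were again 8 and 1, with a median of -0.49 against -0.03. For the averaged EPAT effect on day 5 the members were 7 lower and 2 higher, with a median of -0.42 against -0.02. Fkbp5 is part of each median, and the 3 comparisons share samples. Of the members lower than in vehicle, Zbtb16 (-0.21 ± 0.74), Errfi1 (-0.22 ± 0.30) and Pdk4 (-0.13 ± 0.68) lay within their SE of 0. On day 5 EPAT against vehicle and the combination against EPAT each had 6 lower and 3 higher (medians -0.22 and -0.40). Anti-PD-1 against vehicle on day 5 had 2 lower and 7 higher (median 0.16). The combination against vehicle on day 2 had 3 lower and 6 higher (median 0.03).

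Markers of other cells were compared between the same day 5 groups, and none of them was called. Against vehicle, the combination had 9 of 9 tested T cell markers higher (median 1.09), 10 of 10 macrophage and monocyte markers higher (median 0.59), 5 of 5 neutrophil markers higher (median 0.57), 7 of 8 fibroblast markers higher (median 0.56), 5 of 6 endothelial markers higher (median 0.39), 8 of 8 adipocyte markers lower (median -2.20) and 9 of 12 skeletal muscle markers lower (median -0.24). The summed T cell level ranged from 83.2 to 189.4 CPM in vehicle, 73.1 to 569.6 under anti-PD-1, 78.8 to 253 under EPAT and 141 to 425 in the combination. The summed adipocyte level ranged from 113 to 279 CPM in vehicle, 15.1 to 541 under anti-PD-1, 30.1 to 92.9 under EPAT and 27.2 to 168 in the combination. For macrophages and monocytes the sums were 1533 to 3209.7, 1525 to 5552, 1312 to 2887.5 and 2517 to 5119 CPM in the same order, and for skeletal muscle 616 to 2355, 8.71 to 16715.5, 117 to 2592 and 305 to 3062 CPM. Summed neutrophil markers were at 24.5 to 469 CPM in vehicle (median 55.6) and 142 to 227 CPM in the combination (median 213.5), and fibroblast markers at 4805 to 19132 CPM (median 6605) and 10140.2 to 16845 CPM (median 13999). No tested marker of these lists was at 0 throughout, and the T cell marker Trac was untested with at most 8 counts, as was the neutrophil marker Ly6g with none. Their part in the member values was not tested. In bulk RNA, fewer cells that express a gene and less of its RNA per cell cannot be told apart.

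Sgk1, the serum and glucocorticoid regulated kinase (chr10:21882184-21999903, plus strand), and Errfi1, which encodes an inhibitor of EGFR family receptors (chr4:150853919-150868892, plus strand), showed no order of this kind on day 5. Sgk1 on day 5 had 179, 188, 115, 194 and 173 CPM in vehicle, 187, 224, 146, 108 and 85.7 CPM under anti-PD-1, 182, 365, 153, 153 and 133 CPM under EPAT, and 119, 212, 101, 166 and 109 CPM in the combination. The groups overlapped, with the highest library under EPAT. The combination differed from vehicle by -0.26 ± 0.25 for Sgk1 (adjusted p = 0.615) and by -0.22 ± 0.30 for Errfi1 (adjusted p = 0.735). Errfi1 on day 5 had 208, 152, 115, 132 and 132 CPM in vehicle, 226, 246, 182, 77.2 and 60.1 CPM under anti-PD-1, 157, 294, 150.1, 136 and 145 CPM under EPAT, and 109.7, 149.5, 67.7, 196 and 110.1 CPM in the combination. Its highest library was the EPAT replicate 2 that was also the highest for Sgk1. On day 2 the group means ran from 147 to 167 CPM for Sgk1 and from 136 to 201 CPM for Errfi1. The 8 group means of Sgk1 spanned 141 ± 46.7 CPM (combination, day 5) to 197 ± 95.4 CPM (EPAT, day 5) and those of Errfi1 127 ± 48.5 CPM (combination, day 5) to 201 ± 57.1 CPM (anti-PD-1, day 2), with no neighbours in either order apart by more than both their SDs. Neither gene reached an unadjusted p under 0.05 in any of the 19 comparisons.

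Ddit4, whose product REDD1 restrains mTORC1 (chr10:59949669-59951834, minus strand), had its larger fitted differences on day 2. Vehicle tumours then had 132, 73.1, 49.4, 90.6 and 71.2 CPM, EPAT tumours 49.4, 55.6, 60.1, 38.9 and 49.6 CPM, anti-PD-1 tumours 64.2, 67.9, 64.2 and 47.3 CPM, and combination tumours 74.9, 163, 61.4, 51.2 and 70.0 CPM. Vehicle replicate 1 and combination replicate 2 stood high, and EPAT overlapped vehicle through vehicle replicate 3. EPAT was at -0.72 ± 0.25 against vehicle (adjusted p = 0.697) and the interaction was 1.18 ± 0.37 (adjusted p = 0.478), which was 0.78 without combination replicate 2. On day 5 the Ddit4 means ran from 45.9 ± 11 CPM in the combination to 64.6 ± 18.4 CPM under anti-PD-1, and the combination was at -0.33 ± 0.25 against vehicle (adjusted p = 0.512). Averaged over treatments Ddit4 was at -0.34 ± 0.13 between day 5 and day 2 (adjusted p = 0.156).

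Zbtb16, a transcriptional repressor strongly induced by glucocorticoids in many tissues (chr9:48654297-48836222, minus strand), was measured at 1 to 379 counts per library. The combination on day 2 had 1.91, 34.7, 3.54, 3.01 and 4.81 CPM and vehicle 5.05, 0.125, 1.85, 0.776 and 2.53 CPM. Replicate 2 of the combination exceeded each of the other 38 libraries, whose highest had 10.0 CPM under anti-PD-1 on day 5. The combination was at 2.19 ± 0.75 against vehicle on day 2 (adjusted p = 0.26), and at 0.68 (adjusted p = 0.836) without that library. The other day 2 groups had 2.36 to 6.66 CPM (anti-PD-1) and 1.38 to 5.71 CPM (EPAT). On day 5 Zbtb16 ranged from 2.39 to 4.50 CPM in vehicle, 0.629 to 10.0 under anti-PD-1, 0.264 to 3.04 under EPAT and 1.02 to 5.09 in the combination. EPAT was at -1.22 ± 0.77 against vehicle (adjusted p = 1.00).

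Pdk4, the pyruvate dehydrogenase kinase that turns cells from glucose to fat oxidation (chr6:5483351-5496309, minus strand), had at most 44 counts in a library. Anti-PD-1 tumours of day 2 had 3.67, 1.54, 0.416 and 2.49 CPM, and vehicle tumours 0.301, 1.12, 1.21, 0.323 and 0.271 CPM, so 3 of 4 lay above every vehicle library. The difference was 1.68 ± 0.70 (adjusted p = 0.633), and how often other genes had that order was not counted. On day 5 all groups overlapped, with means of 0.884 CPM in vehicle, 1.09 under anti-PD-1, 0.631 under EPAT and 0.799 in the combination, and the combination was at -0.13 ± 0.68 against vehicle (adjusted p = 0.943). At these counts a difference within that SE was not detectable.

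The receptor gene Nr3c1 was the steadiest of the 9 genes, its lowest and highest libraries at 96.2 and 203 CPM. On day 5 it had 153, 129, 129, 167 and 96.2 CPM in vehicle, 141, 174, 137, 143 and 186 CPM under anti-PD-1, 130.04, 179.8, 122, 132 and 145 CPM under EPAT, and 121, 203, 155, 188 and 139 CPM in the combination. The combination overlapped vehicle and was at 0.26 ± 0.14 (adjusted p = 0.364), while EPAT alone was at 0.07 ± 0.14 (adjusted p = 1.00). On day 2 the Nr3c1 means were 131 ± 12.1 CPM in vehicle, 142 ± 24.9 under anti-PD-1, 139 ± 14 under EPAT and 135 ± 15.6 in the combination. No unadjusted p of Nr3c1 was under 0.05 in the 19 comparisons. Across the 8 groups its spread between libraries, a biological coefficient of variation of 0.167, was the smallest of the members, against 0.227 for Fkbp5, 0.206 for Klf9, 0.309 for Tsc22d3 and 0.773 for Zbtb16.

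**Figure D3:**
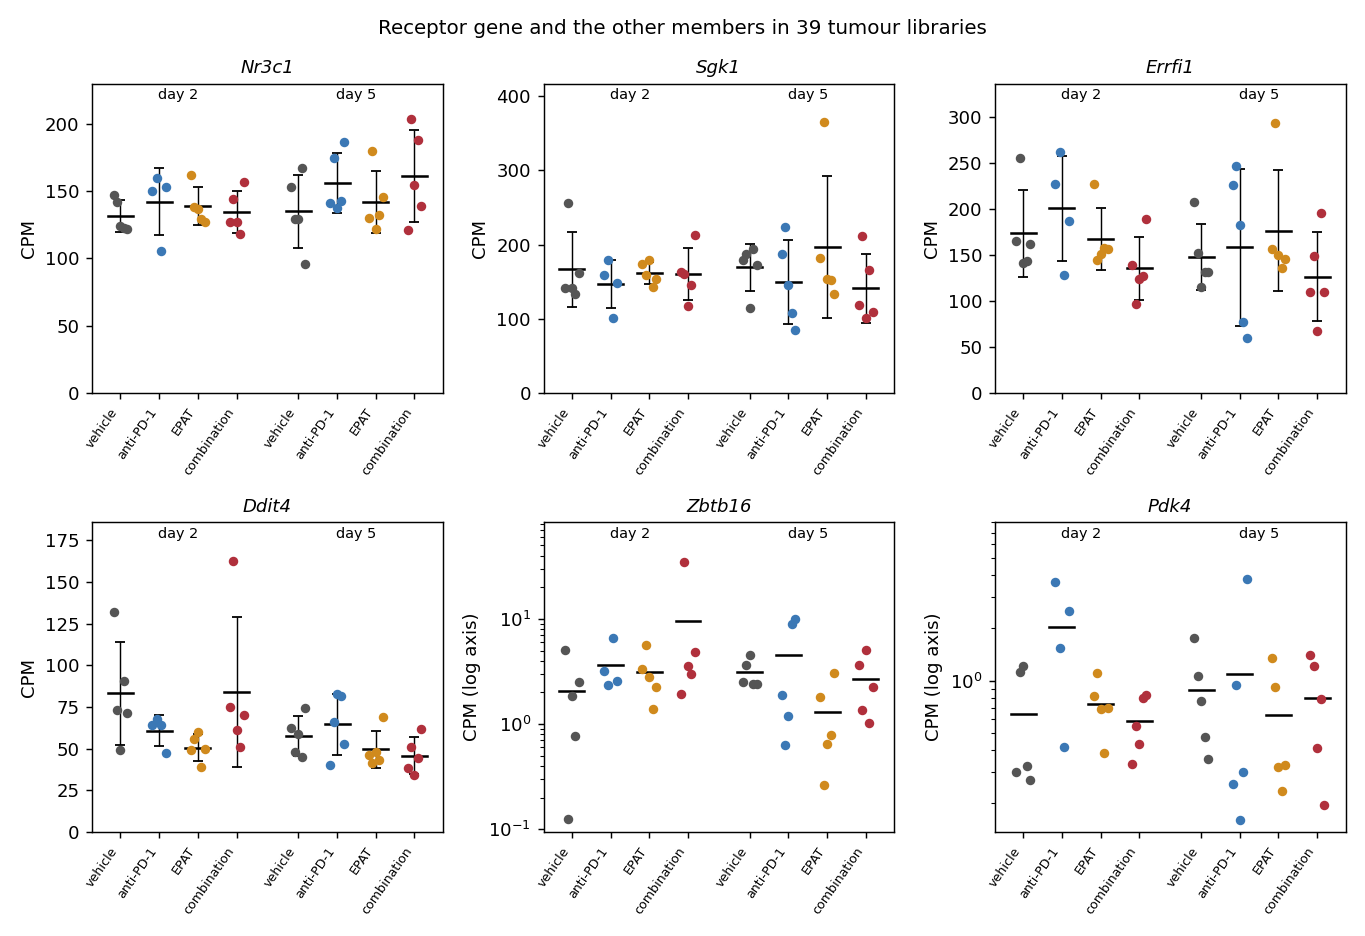
Level in CPM of Nr3c1, Sgk1, Errfi1 and Ddit4 (linear axes from 0, mean and SD) and of Zbtb16 and Pdk4 (log axes, mean only) for each library, by treatment and day. The groups overlap in every panel, and single libraries stand apart, such as Zbtb16 at 34.7 CPM in the combination on day 2 and Sgk1 at 365 CPM under EPAT on day 5.

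Members were next compared within groups, by subtracting each group's mean from the log2 CPM of its libraries. This removes the differences between groups, which were taken to have chosen Fkbp5. Over the 39 libraries Fkbp5 moved with Tsc22d3, with Pearson's r of 0.63 (adjusted p = 0.00196) and Spearman's rho of 0.61 (adjusted p = 0.00504). These p-values come from a permutation test with 100000 reassignments within groups, 2-sided and adjusted over 56 relations. The 56 hold each pair with Fkbp5, a few other picked pairs of members, and pairs of members with cell scores or total count. Without the 2 libraries farthest from the median of Fkbp5, r was 0.57. Fkbp5 and Klf9 had r = 0.53 (permutation adjusted p = 0.0245) and rho = 0.39 (permutation adjusted p = 0.113), and r was 0.32 without 2 libraries, so that relation rests on those libraries. Tsc22d3 and Klf9 had r = 0.49 and rho = 0.44 (permutation adjusted p = 0.0477 and 0.0976). Fkbp5 had r between -0.12 and 0.16 with Zbtb16, Sgk1, Ddit4, Errfi1, Pdk4 and Nr3c1, none passing.

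Among the pairs of members tested, a different pair was tighter. Most pairs without Fkbp5 were not tested. How those tested were picked is not stated, and the adjusted p-values given for them do not account for the picking. Sgk1 and Errfi1 had r = 0.84 and rho = 0.82, and r was 0.81 without 2 libraries. Their adjusted p was 0.00056 by permutation, which is the smallest that these permutations can give. Klf9 and Ddit4 had r = 0.54 and rho = 0.57 (permutation adjusted p = 0.00854 and 0.00938), and r was 0.60 without 2 libraries. The deviations of Fkbp5 from its group means had r of 0.27 with the skeletal muscle score, -0.22 with the neutrophil score, 0.01 with the T cell score and 0.28 with the log2 total count (permutation adjusted p = 0.286, 0.408, 0.972 and 0.286). Those of Zbtb16 had r of 0.65 with the adipocyte score, 0.59 with the fibroblast score and 0.56 with the endothelium score (permutation adjusted p = 0.00411, 0.0245 and 0.0261).

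**Figure D4:**
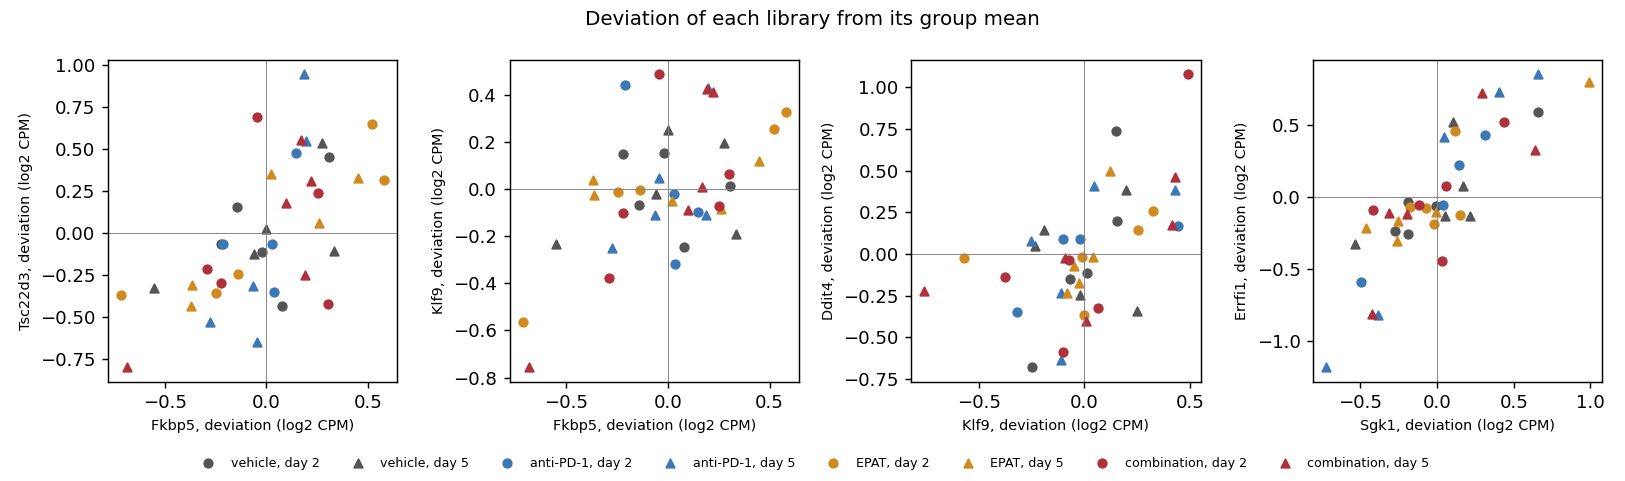
Deviation of each library from its group mean in log2 CPM for 4 pairs of members (both axes), with colour for treatment and shape for day; the 39 points share libraries and depth. Points run from lower left to upper right most tightly for Sgk1 and Errfi1 (r = 0.84), and the 2 lowest Fkbp5 libraries also lie low for Klf9.

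Among 11642 genes with a mean log2 CPM of at least 1, the 8 whose deviations followed Fkbp5 most closely over the 39 libraries included Gnaq (r = 0.65), Dnaja2 (0.64), Tsc22d3 (0.63), Eif4h (0.62), Chmp7 (0.61), Chchd4 (0.61) and Per2 (0.61). Tsc22d3 was the 1 other member in that list. Per2, a clock gene whose promoter responds to glucocorticoids, was also among them. Of these 8 genes, 4 were also among the 8 most alike without subtracting group means (Tsc22d3, Eif4h, Per2 and Gnaq), where Tsc22d3 led with r = 0.76. Without subtraction the day 5 values used in the choice of Fkbp5 enter r, so the shared names and that r support nothing further.

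Of 30 further genes that glucocorticoids induce, 27 were tested, and none was called in the comparisons of the combination or of EPAT. For the averaged EPAT effect on day 5, 7 were higher and 20 lower, with a median of -0.14 against -0.02 for all genes, in the combination against vehicle 12 were higher and 15 lower (median -0.14 against -0.01), in EPAT against vehicle 14 and 13 (median 0.03), and for the averaged effect on day 2, 17 were higher and 10 lower, with a median of 0.11 against -0.0048. The smallest p-values on day 5 belonged to Il1r2, a decoy receptor of interleukin-1 (-0.73 ± 0.32), Plin4 of lipid droplets (-1.52 ± 0.68), Lcn2 (-0.94 ± 0.44) and Rhob (-0.24 ± 0.12), all with an adjusted p of 0.999. Mt2, a metallothionein, was at 0.55 ± 0.18 on day 2 (adjusted p = 0.998). Per1, a clock gene and direct receptor target, had 20.04 to 50.8 CPM in vehicle on day 5, 29.8 to 51.8 under anti-PD-1, 30.1 to 57.1 under EPAT and 18.5 to 22.4 in the combination, which overlapped vehicle. Dusp1, a phosphatase of MAP kinases, had means of 101 ± 53.4 CPM in vehicle and 77.1 ± 40.6 in the combination. Tat had no count, and Fam107a and Hif3a were not tested.

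Of 15 clock genes 14 were tested, Per1 and Cry2 being shared with the former list. Cry1, a repressor of the clock, had the smallest p of the averaged EPAT effect on day 5 (-0.45 ± 0.10, adjusted p = 0.22), with means of 28.2 ± 3.82 CPM in vehicle, 24.7 ± 3.56 under anti-PD-1, 17.5 ± 1.96 under EPAT and 21.4 ± 3.45 in the combination. Per2 was at -0.68 ± 0.22 (adjusted p = 0.889), Ciart at -0.74 ± 0.31 (adjusted p = 0.999) and Bhlhe40 at -0.37 ± 0.16 (adjusted p = 0.999). The list was split, 5 higher and 9 lower, with a median of -0.13. Nr1d1, which encodes the repressor REV-ERBα, rose between day 2 and day 5 over all treatments (0.33 ± 0.09, adjusted p = 0.0343), the 1 clock gene called there.

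No gene of the receptor's machinery was called in the comparisons of EPAT or the combination. All 10 Hsp90 chaperones and partners tested were lower in the combination than in vehicle on day 5, none called, with a median of -0.14 against -0.01 for all genes. All 10 were also lower under anti-PD-1 alone (median -0.18) and EPAT alone (median -0.15) against the same vehicle group, and in the combination against anti-PD-1 6 were higher and 4 lower (median 0.04). Hspa8, a constitutive Hsp70, was at -0.21 ± 0.09 and Ptges3, the p23 co-chaperone, at -0.22 ± 0.11 for the averaged EPAT effect (adjusted p = 0.999 for each). Fkbp4, the close relative of Fkbp5 that favours hormone binding, had 123 ± 22.9 CPM in vehicle, 114 ± 25.1 under anti-PD-1, 112 ± 8.80 under EPAT and 112 ± 27.5 in the combination on day 5. The 10 receptor co-regulators were 5 higher and 5 lower for the averaged EPAT effect (median -0.0013), and in the combination against vehicle 9 were higher and 1 lower (median 0.14). Of 12 genes of steroid supply and related receptors 6 were tested, 3 higher and 3 lower. Hsd11b1, which regenerates active glucocorticoid inside cells, had 10.7 ± 5.00 CPM in vehicle and 12.4 ± 4.15 in the combination. Cyp11a1, which starts steroid synthesis, had a mean of 0.836 CPM in vehicle and 1.65 in the combination. Serpina6, Cyp11b1 and Hsd3b1 had no count in any library.

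Of 12 inflammatory genes that glucocorticoids repress, 10 were tested, none called. In the combination against vehicle on day 5, 7 were higher and 3 lower, with a median of 0.42 against -0.01, and for the averaged EPAT effect the counts were the same with a median of 0.13. Icam1, an adhesion molecule, had 28.5 ± 11.3 CPM in vehicle and 49.6 ± 18.6 in the combination, and Tnf 13.7 ± 6.53 and 18.3 ± 7.28 CPM. Lists that sit near single members behaved as follows for the combination against vehicle on day 5, without a called gene. Of the ERK feedback genes near Errfi1, 11 of 12 were lower (median -0.42), with Dusp6 at 277 ± 23.4 CPM in vehicle and 174 ± 82.8 in the combination. Of the FOXO and fasting genes near Pdk4, 6 of 11 were higher (median 0.02). Of 15 genes induced by hypoxia, as Ddit4 also is, 9 were lower (median -0.17).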

How the data were processed

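Bulk 3′ tag libraries of mouse melanoma tumours (39, in 8 groups of treatment and day) were made from 500 ng of RNA with a QuantSeq forward kit, per the labels' protocols. The extraction protocol names a day of isolation that matches neither time point, and groups follow each sample's own label. The authors deposited whole-number counts per Ensembl gene, made with bcl2fastq, STAR and featureCounts on mm10/GRCm38, per the submitters' processing notes. They also deposited log2 values, which equal log2(count + 0.5) minus 1 constant per library (largest deviation 5e-09) and were used in 1 alternative. Versions, annotation and strand setting are not given in these sources; overlapping and antisense genes could therefore share reads.

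The counts were analysed in edgeR 4.0.16 (R 4.3.3). The low-count filter was filterByExpr (minimum count 10, minimum total 15), library sizes were scaled by TMM, and a quasi-likelihood model with 8 group means was fitted to all 39 libraries, with 31 residual degrees of freedom. Each adjusted p is 2-sided with Benjamini-Hochberg adjustment over the 15070 genes, and SE is the log2 fold change over the square root of F. There were 19 comparisons and 1 test of any difference. Symbols were found for 37607 of 39179 identifiers in the GENCODE annotation of GRCm38. No replicate pair agreed within counting noise, and the test was tried on simulated data. Alternatives were no filter, a stricter filter, RLE scaling, DESeq2 1.42.0, limma 3.58.1 on the deposited log2 values, a replicate block, only the libraries compared, a muscle score, lung transcripts as a factor or stratum, leaving out each library and, added after seeing the data, leaving out 3 libraries of mismatched title number.

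The members, the gene lists and the alternatives were chosen with earlier results of these data known. Named genes were the members, the genes of each list with the smallest p in the averaged EPAT effect, the genes most like Fkbp5 (1 of which is not reported here), and a few genes of the lists picked for their known role after their values were seen (Per1, Dusp1, Fkbp4, Hsd11b1, Cyp11a1, Icam1, Tnf and Dusp6).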

Additional observations from a re-analysis of the deposited data

Results flagged for a closer look

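Single libraries stood apart from the other libraries of their group by Dixon's 95% criterion in 11 of the 72 sets of a gene and a group. The criterion marks about 1 in 20 sets of independent, normally distributed values. These sets share libraries and hold CPM values, so the 11 cannot be set against that rate. For Fkbp5 this was replicate 1 of the combination on day 5, at 15.2 CPM against 26.2 to 28.5 CPM in the others. Without that library Fkbp5 was -1.04 (adjusted p = 0.107 by edgeR) against vehicle.

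Replicate 2 of the combination on day 2 stood apart for Zbtb16, at 34.7 CPM against 1.91 to 4.81 CPM, and for Ddit4, at 163 CPM against 51.2 to 74.9 CPM. The summed fibroblast markers of the same library were at 20266 CPM, against 4562 to 6807 CPM in the other combination libraries of that day, and their part in both values was not tested.

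Sgk1 and Errfi1 stood apart together in 2 libraries. In vehicle replicate 2 of day 2 Sgk1 was at 256 CPM against 134 to 161 CPM and Errfi1 at 255 CPM against 142 to 165 CPM. In EPAT replicate 2 of day 5 Sgk1 was at 365 CPM against 133 to 182 CPM and Errfi1 at 294 CPM against 136 to 157 CPM. Sgk1 was also low in vehicle replicate 3 of day 5, at 115 CPM against 173 to 194 CPM, and Errfi1 high in EPAT replicate 1 of day 2, at 227 CPM against 145 to 157 CPM. Ddit4 was high in EPAT replicate 5 of day 5, at 68.9 CPM against 41.5 to 48.2 CPM, and Pdk4 in anti-PD-1 replicate 5 of day 5, at 3.80 CPM against 0.16 to 0.944 CPM.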

How the results depend on the processing

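Of the counts of called members under the other settings, 204 stayed within 1.5 times and 24 moved. Most of these counts were 0 in the main fit and are taken as unchanged while they stay at 0. The 204 therefore do not measure how stable the calls were. Of the members' fold changes, only those with an unadjusted p under 0.05 in the main fit were followed. Of these, 414 kept their direction and side of the threshold, 16 fell short of it, 3 passed it and 1 reversed. Most of those followed were uncalled in the main fit and are taken as kept while they stay uncalled with the same sign. The 414 therefore do not measure stability either. With no filter on low counts, 0 members were called in the combination against anti-PD-1 on day 5 (Fkbp5 -1.09, adjusted p = 0.0547) and in the averaged EPAT effect on day 5 (-0.78, adjusted p = 0.0582). With the muscle score as a covariate the averaged EPAT effect called 0 (-0.78, adjusted p = 0.0583) and the test of any difference 1. That test also called 1 with lung transcripts as a factor and 1 with limma on the deposited log2 values. Within libraries with lung transcripts 0 members were called for the combination against vehicle (-1.23, adjusted p = 0.236), the combination against anti-PD-1 (-1.002, adjusted p = 0.94), the averaged EPAT effect (-0.90, adjusted p = 0.778) and the days (-0.43, adjusted p = 0.194). Within those without, 0 were called in the first 3 (-0.95, -1.14 and -0.53), and EPAT against vehicle on day 5 reversed for Fkbp5, to 0.07443. Fitting only the libraries compared also left 0 in those 3 (adjusted p = 0.306, 0.57 and 0.326). These fits hold fewer samples. DESeq2 called 2 members, Fkbp5 and Klf9, in the combination against vehicle (83 genes) and against anti-PD-1 (18 genes), and 1, Fkbp5, in the averaged EPAT effect between the days (3 genes). Leaving out the 3 libraries of mismatched title number, a setting chosen after seeing the data, called 0 members in the combination against anti-PD-1 (-1.109, adjusted p = 0.138) and 1 in the test of any difference. Except where stated, the cause was not tested.

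Leaving out each library in turn, the members called ranged from 0 to 2 for the combination against vehicle on day 5, from 0 to 1 against anti-PD-1, from 0 to 1 for the averaged EPAT effect, and from 1 to 2 for any difference. Over the same fits the genes called in all numbered 0 to 205, 0 to 6, 0 to 3 and 24 to 213. Fkbp5 lost its call against vehicle without vehicle replicates 1, 4 or 5 or combination replicates 1, 3 or 4 (over all fits -1.297 to -1.041, largest adjusted p = 0.107). Against anti-PD-1 it lost it without anti-PD-1 replicates 1, 3, 4 or 5 or combination replicates 1, 2 or 3 (-1.165 to -0.9725, largest adjusted p = 0.189). For the averaged EPAT effect it lost it in 30 of 39 fits (-0.8477 to -0.7178, largest adjusted p = 0.153). Replicate numbers did not pair the libraries: deviations of same-numbered libraries had a median correlation of 0.0053 over 133 pairs, and 12 of 39 libraries correlated best with their own number. With the replicate block 0 members were called in the combination against anti-PD-1 (-1.13, adjusted p = 0.0603), in the averaged EPAT effect (-0.80, adjusted p = 0.0707) and in the test of any difference. Depth limits Pdk4 and Zbtb16, whose lowest libraries held 2 and 1 counts.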
